A study of Mus musculus with 2 samples.

Results

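The chemokine ligand genes were examined in macrophages grown from mouse bone marrow. The members were taken by name: every gene on the array whose symbol is Ccl or Cxcl followed by a digit, together with Cx3cl1, Xcl1, Pf4 and Ppbp. There were 40 such genes, carried by 41 probe sets, among 19505 named genes. Gene expression had been measured on whole-transcript arrays in 2 samples, 1 array per group. One sample has the genotype LysM (+);MC4RTB/TB, called LysM(+) below, and the other the genotype MC4RTB/TB, called TB/TB below, so the TB allele of MC4R is shared by both and LysM is what sets them apart. As background, the TB design places a removable transcription stop in Mc4r, the gene of the melanocortin 4 receptor, which Cre recombinase can excise, and LysM (the gene Lyz2) serves widely as a promoter for Cre in macrophages, monocytes and neutrophils. The labels spell out neither, and they give no age, sex or number of animals per sample. The culture medium held 10% serum, and M-CSF, the growth factor of the macrophage lineage, was supplied at day 0 and once more at day 3, each time at a dose of 25 ng/mL. Cells were used from day 5, and the labels name no further treatment. With 1 array per group no difference below has a replicate check, no test was run, and each difference describes these arrays alone.

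Chemokines are small secreted proteins that direct the movement of leukocytes by way of receptors coupled to G proteins. They are sorted by the spacing of their first cysteines into the CC, CXC, CX3C and C classes, and many of their genes lie in clusters that arose by duplication. Macrophages are known both as a source of inflammatory chemokines, which are induced through NF-kB or interferon signalling, and as cells that follow them. Constitutive chemokines such as Cxcl12 and Ccl21 are known mainly from stromal, lymphoid and mucosal cells.

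Values are the deposited RMA values, read as log2, and every difference is LysM(+) minus TB/TB on that scale. The highest value on either array, 19.5, is above what RMA usually gives, so each fold depends on the log2 reading, whereas the direction of a difference does not. The arrays carry 23 background control probe sets with values from 3.09 to 6.81, and a gene was taken as above background only where both arrays exceeded 6.81. To be counted as higher or lower, a gene had to differ by 1.5-fold or more and have its brighter array at or over 6.12, which is the median signal of the named probe sets and is called the floor. Probe sets differ in how strongly they respond, so values of different genes are not compared with each other. Adgre1 (17.01 and 17.24) and Csf1r (17.69 and 17.89), which mark macrophages, were among the 5 measured of 6 listed macrophage markers, and all 5 were above background. Mc4r, with 4.45 in LysM(+) and 4.57 in TB/TB, was within the background range and gives no check of the genotype labels, and Lyz2 had values of 18.86 and 19.04.

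Resting marrow macrophages had signal above background on both arrays for 13 of the 40 chemokine ligand genes, while among all named genes 41.5% had such signal. The 13 were the CC genes Ccl2, Ccl3, Ccl4, Ccl5, Ccl6, Ccl9 and Ccl25 and the CXC genes Cxcl2, Cxcl3, Cxcl10, Cxcl16, Pf4 and Ppbp. Ccl7 and Cxcl12 passed the limit on the LysM(+) array only, and the other 25 genes stayed within the background range on both. Of those 25, 24 did not reach the floor on either array, and Ccl22, a ligand of CCR4, lay between the floor and the limit at 6.57 and 6.61. A value within the range does not show that a gene was silent, since the files hold no detection call.

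Of the 40 genes, 6 were counted as higher in LysM(+) and 0 as lower. The 6 were Ppbp, Pf4, Ccl6, Cxcl2, Ccl9 and Ccl4, and all of them were above background on both arrays. Among all named genes, 5.67% were counted as higher and 2.68% as lower. Taken over the genes whose brighter value reached the floor, 10.9% were counted as higher and 5.16% as lower, and 16 members reached it. Taken over the genes above background on both arrays, 10.0% were higher and 3.52% lower, against 6 higher and 0 lower of 13 members. Members that reach a limit through their brighter array are favoured by it, and the array as a whole had more genes higher than lower. The median difference was 0.02 over 40 members, with 22 higher and 18 lower by any amount. Over all named genes it was -0.01, with 9612 higher and 9892 lower. Over the 13 members above background the median was 0.08, and over all genes above background it was also 0.08. Over the 16 members whose mean value reached the floor it was 0.23, with 11 higher and 5 lower. Over all genes under the same filter it was 0.07, with 5638 higher and 4118 lower. The median over 40 members includes 24 that were under the floor on both arrays.

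**Figure D1:**
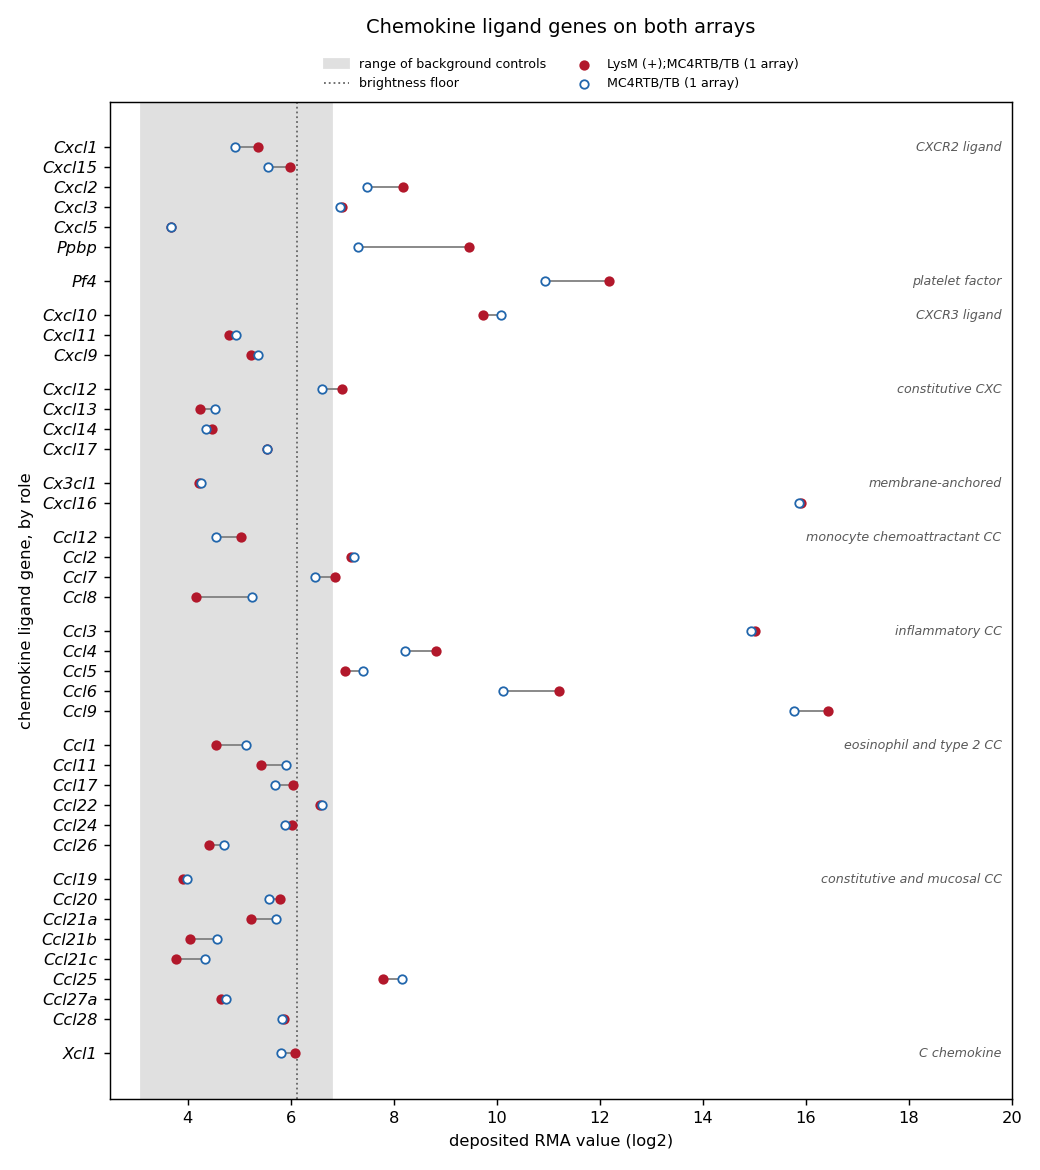
Deposited RMA values (log2, horizontal axis) of the 40 chemokine ligand genes, grouped by role, with the LysM(+) array as filled and the TB/TB array as open points and the range of the background controls, 3.09 to 6.81, shaded. The 13 genes to the right of the shading on both arrays include Ppbp, whose points lie farthest apart at 9.46 and 7.31.

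The largest differences belonged to Ppbp and Pf4, neighbouring genes of the CXC class best known from platelets. Ppbp encodes the precursor of a ligand of CXCR2, the neutrophil chemokine receptor, and had a value of 9.46 in LysM(+) and 7.31 in TB/TB. That is a difference of 2.16, or 4.46-fold, and 61 of the 10137 genes at the floor had a larger one. Pf4 encodes platelet factor 4, a heparin-binding chemokine, and had values of 12.17 and 10.94. Its difference of 1.23, or 2.35-fold, was exceeded by 220 of those genes. Both genes were above the background range on both arrays, Pf4 by a wide margin and Ppbp in TB/TB more narrowly, with 7.31 against the limit of 6.81.

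The promoters of the pair are shown because these genes lie side by side and gave the largest differences of the family. All promoters here are RefSeq sequences of GRCm38.p6, from 250 bases before to 50 after the start site, written 5′ to 3′ along the gene, with matches to any of 8 searched motifs in capitals.
Ppbp (chr5:90768268-90768567, plus strand): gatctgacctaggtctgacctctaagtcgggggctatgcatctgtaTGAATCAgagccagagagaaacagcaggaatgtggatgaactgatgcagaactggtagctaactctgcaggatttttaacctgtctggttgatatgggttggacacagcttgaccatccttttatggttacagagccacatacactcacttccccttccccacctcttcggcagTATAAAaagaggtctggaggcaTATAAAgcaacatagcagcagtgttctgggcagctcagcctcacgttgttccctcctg
Pf4 (chr5:90772185-90772484, plus strand): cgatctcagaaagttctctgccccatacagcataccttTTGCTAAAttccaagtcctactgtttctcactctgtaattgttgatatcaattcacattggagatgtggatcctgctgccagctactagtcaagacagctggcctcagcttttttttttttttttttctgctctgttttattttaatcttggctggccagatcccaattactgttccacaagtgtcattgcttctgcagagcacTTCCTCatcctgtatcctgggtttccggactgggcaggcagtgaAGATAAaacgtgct
The Ppbp promoter has the TATA box letters TATAAA at positions -30 to -25 and again at -8 to -3 from the start site, and an AP-1 match at -204 to -198. The Pf4 promoter has no TATAAA but matches to the GATA and PU.1 motifs, at 37 to 42 and at -8 to -3, and to the C/EBP motif at -212 to -205. A match says that the letters are present and nothing about binding.

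Markers of platelets and of the megakaryocytes that make them were measured for 15 of 18 listed genes. Their mean log2 value was 7.18 in LysM(+) and 7.01 in TB/TB, and the median difference was 0.14, with 9 higher and 6 lower. Summed on the linear scale they came to 17600 and 17500, a sum in which Plek, also a leukocyte gene (13.44 and 13.58), weighs most. Without Plek, whose value is lower in LysM(+), the sum was 6440 and 5200. Rgs18 and Thbs1, both with the higher value in LysM(+), weigh most in it. That sum therefore says little of the dimmer markers. Of the 15, 1 was counted as higher and 1 as lower: the lipoxygenase gene Alox12 (6.70 and 5.75, within the background range on both arrays) and Vwf, von Willebrand factor (7.27 and 8.18). The shares over all named genes were 5.67% higher and 2.68% lower. The platelet receptor genes Gp5 (5.16 and 5.10) and Gp6 (4.63 and 4.48), the platelet tubulin gene Tubb1 (5.76 and 5.08) and the lineage factor genes Gata1 (5.83 and 6.01) and Nfe2 (4.08 and 4.21) were within the background range on both arrays. Above it on both arrays were 7 of the 15, namely Vwf, Plek, Itga2b, the platelet integrin (7.67 and 7.87), Gp9 (6.82 and 6.89), Clec1b (7.35 and 6.96), Rgs18 (11.95 and 11.62) and Thbs1, thrombospondin (10.52 and 9.95). Of these 7, Clec1b, Rgs18 and Thbs1 had the higher value in LysM(+) and the other 4 the lower, and Vwf alone passed 1.5-fold. In a bulk culture, more cells of a type and more RNA per cell cannot be told apart, and the part of platelet-lineage cells in the Ppbp and Pf4 differences was not tested.

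The other genes listed with the CXCR2 ligands, which draw neutrophils, had small or dim differences except for Cxcl2. Cxcl2 had values of 8.19 and 7.49, a difference of 0.70 or 1.63-fold. Cxcl3 had nearly equal values of 6.99 and 6.96, just above the background limit. Cxcl1 (5.36 and 4.92), Cxcl15 (5.98 and 5.57) and Cxcl5 (3.68 and 3.67) were within the background range on both arrays, so no fold is given for them. All 6 CXCR2 ligands including Ppbp had the higher value in LysM(+), by 0.01 to 2.16, but 3 of the 6 differences are between background-level values.

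Cxcl2 and Cxcl3 are shown because their promoters were the most alike of the family while their differences were not. Of 378 pairs among the 28 members with a promoter in the table, this pair had the highest local alignment score, with 69.1% identity over 285 aligned positions.
Cxcl2 (chr5:90903649-90903948, plus strand): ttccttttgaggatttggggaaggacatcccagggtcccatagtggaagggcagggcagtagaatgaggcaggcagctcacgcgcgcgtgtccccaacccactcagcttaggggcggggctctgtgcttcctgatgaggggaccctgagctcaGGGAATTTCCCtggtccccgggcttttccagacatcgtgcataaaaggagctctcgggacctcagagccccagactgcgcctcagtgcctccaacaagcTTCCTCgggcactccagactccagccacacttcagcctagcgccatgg
Cxcl3 (chr5:90785851-90786150, plus strand): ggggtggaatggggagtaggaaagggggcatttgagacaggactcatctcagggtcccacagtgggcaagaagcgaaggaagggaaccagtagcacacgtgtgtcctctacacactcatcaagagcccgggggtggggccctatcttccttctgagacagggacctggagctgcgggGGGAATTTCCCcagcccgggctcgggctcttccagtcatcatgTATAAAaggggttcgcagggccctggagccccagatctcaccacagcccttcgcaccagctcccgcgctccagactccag
Both hold the NF-kB consensus on both strands in overlapping matches, at -97 to -87 in Cxcl2 and at -73 to -63 in Cxcl3. Cxcl1 holds such matches at -71 to -61. The next pairs in the ranking were Cxcl1 with Cxcl2 (74.3% over 179 positions) and Cxcl1 with Cxcl3 (72.4% over 127). The 3 genes thus share promoter sequence, and of the pair above background Cxcl2 differed by 0.70 and Cxcl3 by 0.03. Their transcripts are also related in sequence, and whether their probes share signal was not examined.

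The ligands of CXCR3, which are induced by interferon and draw T cells, were all on the lower side in LysM(+). Cxcl10 had values of 9.73 and 10.09, a difference of -0.36, or 1.28-fold lower, which did not reach the 1.5-fold limit. Cxcl9 (5.23 and 5.36) and Cxcl11 (4.80 and 4.94), the latter a transcribed pseudogene in the C57BL/6J annotation of RefSeq, were within the background range. The interferon response list went the same way, with 7 of 12 measured genes counted as lower, 0 as higher and a median difference of -0.74. Among all named genes 2.68% were counted as lower. Of the 7, Ifit2 (5.93 and 6.52) was within the background range, and 2 of the 12 were higher in LysM(+) by some amount. Among the counted genes Usp18, which restrains interferon signalling, had values of 8.38 and 9.72, and Ifit3 11.64 and 12.83. The Cxcl10 difference was smaller in size than the list's median, and its relation to the list was not tested.

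The Cxcl10 promoter is shown because this is the member of the CXCR3 group with signal above background.
Cxcl10 (chr5:92348840-92349139, minus strand): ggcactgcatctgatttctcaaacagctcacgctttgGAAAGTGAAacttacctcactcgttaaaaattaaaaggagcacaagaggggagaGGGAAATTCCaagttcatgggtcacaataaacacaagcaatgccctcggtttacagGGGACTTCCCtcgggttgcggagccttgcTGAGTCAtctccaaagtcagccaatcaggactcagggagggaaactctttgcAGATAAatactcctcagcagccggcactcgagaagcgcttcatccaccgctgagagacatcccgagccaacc
It has the core letters of the interferon-stimulated response element at -213 to -205, NF-kB consensus matches at -159 to -150 and at -103 to -94, an AP-1 match at -74 to -68 and a GATA match at -22 to -17. Cxcl9 has the interferon element core at -175 to -167, and the promoter of Cxcl11 was not examined.

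The group of inflammatory CC chemokines that draw monocytes, macrophages and T cells had all 5 members above background on both arrays. The genes Ccl5, Ccl9, Ccl6, Ccl3 and Ccl4 of this group lie next to each other on chromosome 11 with no other coding gene between them in GRCm38.p6. Ccl6 had values of 11.20 and 10.12, a difference of 1.08 or 2.11-fold. Ccl9 had 16.42 and 15.76, a difference of 0.66 or 1.58-fold. These are rodent chemokines that signal through CCR1 and are known from myeloid cells at rest. Ccl4, the gene of MIP-1 beta, had values of 8.82 and 8.22, a difference of 0.60 or 1.52-fold, and it was under the 1.5-fold limit after quantile normalization (0.53) and after loess (0.52). Ccl3, the gene of MIP-1 alpha, was nearly equal on both arrays at 15.01 and 14.93, although it adjoins Ccl4 and is commonly induced with it. Ccl5, also called RANTES, was on the lower side at 7.06 and 7.41, a difference of -0.35. Within this run of 5 genes, then, 3 were counted as higher, and Ccl3 and Ccl5 were not.

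Ccl6 and Ccl9 are shown because they are neighbours, both were counted as higher, and their promoters were the fourth most alike pair, with 79.7% identity over 74 aligned positions.
Ccl6 (chr11:83593038-83593337, minus strand): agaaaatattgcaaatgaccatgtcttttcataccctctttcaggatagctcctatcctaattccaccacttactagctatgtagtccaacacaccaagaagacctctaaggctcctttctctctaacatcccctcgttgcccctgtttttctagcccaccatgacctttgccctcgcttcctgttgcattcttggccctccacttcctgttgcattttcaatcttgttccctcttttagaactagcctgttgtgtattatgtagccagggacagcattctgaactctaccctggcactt
Ccl9 (chr11:83578587-83578886, minus strand): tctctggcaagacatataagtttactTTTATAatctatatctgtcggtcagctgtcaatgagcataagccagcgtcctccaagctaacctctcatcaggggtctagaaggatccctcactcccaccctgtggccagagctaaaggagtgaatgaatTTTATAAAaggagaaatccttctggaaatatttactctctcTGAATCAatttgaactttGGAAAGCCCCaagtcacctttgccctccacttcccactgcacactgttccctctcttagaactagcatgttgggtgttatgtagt
No searched motif is present in this window of Ccl6, which is therefore in lower case throughout. Ccl9 has TATA box letters on the forward strand at -92 to -87, besides reverse matches, an AP-1 match at -53 to -47 and an NF-kB consensus match on the reverse strand at -35 to -26.

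Of the monocyte chemoattractants, ligands of CCR2 in the main, only Ccl2 was above background on both arrays. Ccl2, which recruits monocytes from marrow and blood, had values of 7.17 and 7.23. Ccl7 had 6.86 and 6.47, above the limit in LysM(+) alone. Ccl12 (5.03 and 4.56) and Ccl8 (4.17 and 5.26) were within the background range on both arrays. The difference of Ccl8, -1.09, is the lowest of the family, but it lies between values under the floor and was not counted.

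The membrane-anchored chemokines differed little between the arrays. Cxcl16, which binds CXCR6 and also takes up oxidised lipoprotein, had values of 15.91 and 15.86, a difference of 0.05. Cx3cl1, the ligand of CX3CR1, had 4.22 and 4.27, within the background range.

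Most constitutive, mucosal and type 2 chemokine genes were within the background range. In the CXC class Cxcl12, the marrow retention factor that binds CXCR4, had 7.0 and 6.61, above the limit in LysM(+) alone, while Cxcl13, Cxcl14 and Cxcl17 lay between 4.24 and 5.55. In the CC class Ccl25, known from thymus and gut, was above background at 7.80 and 8.16, a difference of -0.36. Ccl19, Ccl20, Ccl27a and Ccl28 had values between 3.92 and 5.88. Ccl21a, Ccl21b and Ccl21c are near-identical copies with values between 3.78 and 5.71. The Ccl21c probe set has the same values, 3.78 and 4.34, as 1 of the 2 probe sets of Ccl21b, so these copies cannot be told apart here. Ccl1, Ccl11, Ccl17, Ccl24 and Ccl26, known from type 2 responses and eosinophil recruitment, lay between 4.41 and 6.04. Xcl1, the C chemokine of T and NK cells, had 6.08 and 5.82. None of these genes was counted (0 genes).

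**Figure D2:**
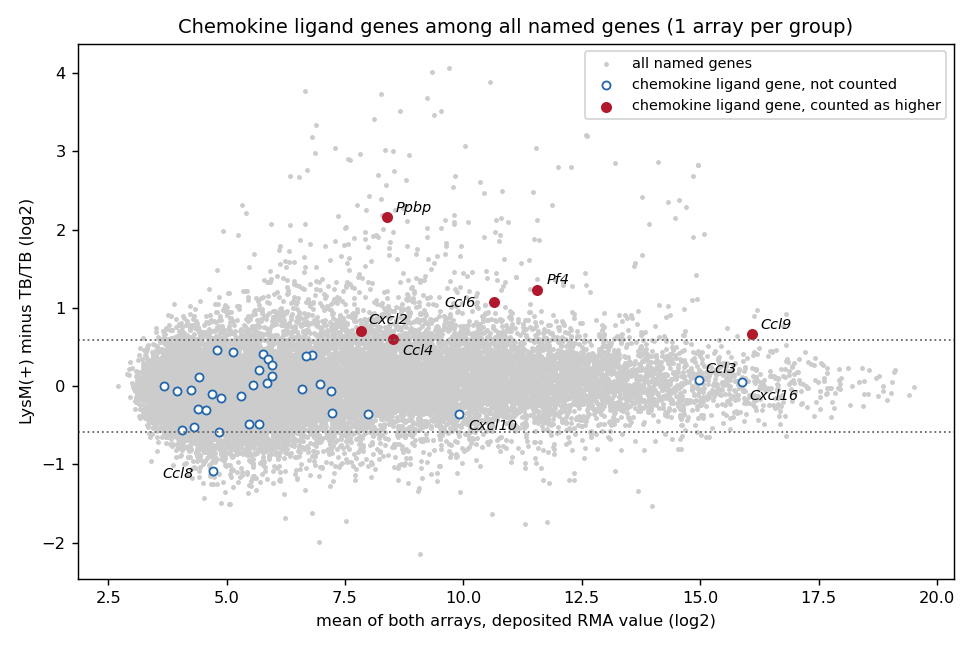
Difference between the arrays (LysM(+) minus TB/TB, log2, vertical axis) against the mean of both arrays (log2, horizontal axis) for all named genes in grey and the chemokine ligand genes as larger points, with dotted lines at 1.5-fold. The 6 counted members lie above the upper line, Ppbp at 2.16, and Ccl8 lies lowest among the dim members at -1.09.

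By chromosome, the counted genes came from 2 runs of neighbours. On chromosome 5 the genes Cxcl5, Ppbp, Pf4, Cxcl3, Cxcl15, Cxcl1 and Cxcl2 follow each other with no other coding gene between. All 7 had the higher value in LysM(+), by 0.01 to 2.16, with 3 counted and 3 within the background range. By any amount, 9612 of all 19505 named genes were higher, and 4836 of the 8096 above background on both arrays. Farther along chromosome 5 Cxcl9, Cxcl10, Cxcl11 and Cxcl13 were all on the lower side, by -0.13 to -0.36, but only Cxcl10 was above the background range. Beyond them Ccl26 (4.41 and 4.71) was on the lower side and Ccl24 (6.02 and 5.89) on the higher, both within that range. On chromosome 11 the run of Ccl2, Ccl7, Ccl11, Ccl12, Ccl8 and Ccl1 had 2 genes higher and 4 lower, none of them counted (0 genes), and the run from Ccl5 to Ccl4 had 4 higher and 1 lower. Neighbours of a cluster can share sequence, so they are not independent.

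**Figure D3:**
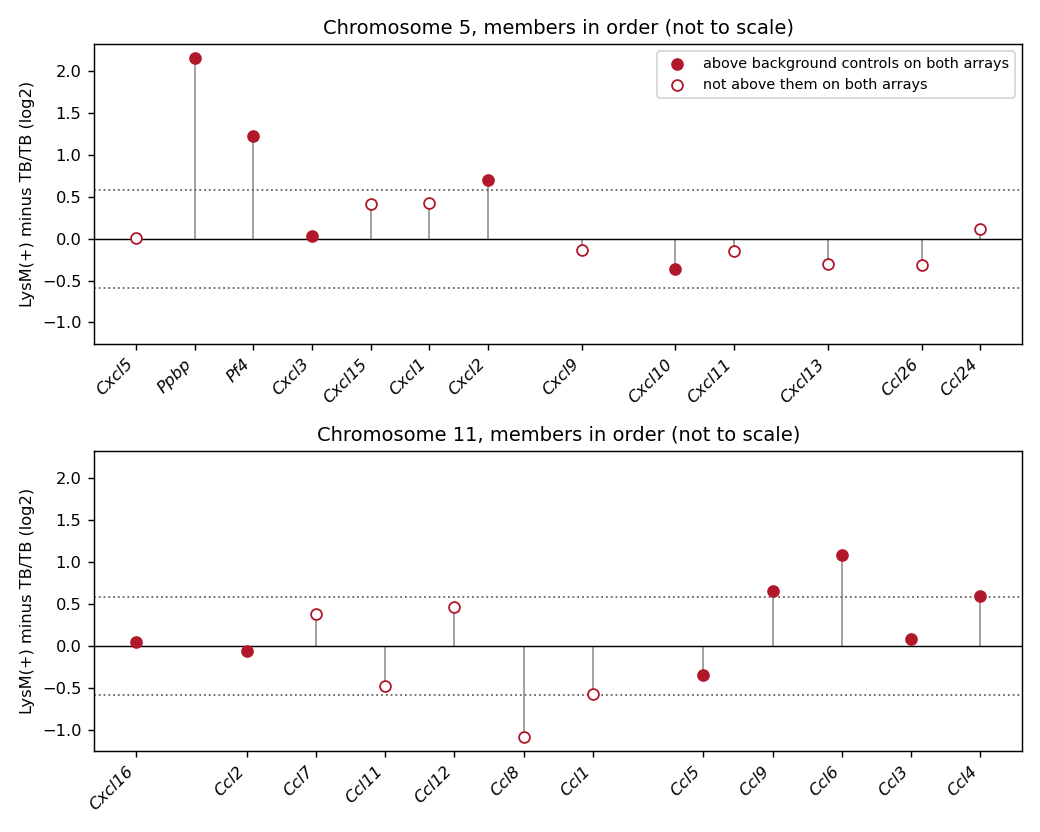
Differences (LysM(+) minus TB/TB, log2, vertical axis) of the chemokine ligand genes of chromosomes 5 and 11 in the order of the GRCm38.p6 annotation, with gaps between runs, filled points for genes above background on both arrays and dotted lines at 1.5-fold. The points past the upper line are Ppbp, Pf4 and Cxcl2 on chromosome 5 and Ccl9, Ccl6 and Ccl4 on chromosome 11.

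The motifs searched in the promoters, on both strands, were the TATA box with the letters TATAAA, the AP-1 site with the letters TGANTCA, the C/EBP site with the letters TTNNGCAA, a part of the cAMP response element with the letters TGACGT, the GATA site with the letters AGATAA, the PU.1 box with the letters GAGGAA, the core of the interferon-stimulated response element with the letters GAAANNGAA, and the NF-kB consensus. The TATA box letters can overlap a reverse match to themselves, as in Ccl9. The NF-kB consensus was in 7 of the 28 member genes with a promoter, or 25.0%, against 4.51% of all 32851 promoters of the same length. The carriers were Ccl9, Ccl20, Ccl27a, Cxcl1, Cxcl2, Cxcl3 and Cxcl10, of which Ccl9 and Cxcl2 were counted as higher and Cxcl10 was on the lower side. Cxcl1, Cxcl2 and Cxcl3 share promoter sequence, so they are not independent carriers and they raise the members' share. TATAAA was in 10 members, or 35.7%, against 13.6% of all promoters, the interferon element core in 6, or 21.4%, against 8.56%, and AP-1 in 6, or 21.4%, against 7.81%. GATA was in 5, or 17.9%, against 11.2%, C/EBP in 4, or 14.3%, against 10.8%, PU.1 in 10, or 35.7%, against 28.3%, and TGACGT in 1, or 3.57%, against 7.51%. A member with more than 1 promoter in the table counted as a carrier if any of them matched, which raises the members' share.

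The receptors of these ligands were measured for 18 genes, of which 6 were above background on both arrays. Of the 18, 3 were counted as higher and 0 as lower: Cx3cr1 (9.15 and 7.25), Ccr3, the eosinophil-type receptor (9.54 and 8.35), and Cxcr2 (6.74 and 6.03, within the background range). Cx3cr1 was thus 3.74-fold higher with its ligand Cx3cl1 at background, and Ccr1, the receptor of Ccl6 and Ccl9, had 6.23 and 6.29, within the background range. Of the 6 genes listed as atypical receptors, most of which remove or present chemokines, 1 was counted as lower, Ccrl2 at 8.65 and 9.25. Among 23 measured genes of signalling below the receptors, 2 were counted as higher, Rgs1 (12.13 and 11.17) and the receptor kinase gene Grk3 (8.96 and 8.21), and 1 as lower, Grk5 (8.36 and 9.36). Among 11 genes for proteases and proteoglycans that cut or bind chemokines, 2 were counted as higher, Mmp8 (9.23 and 8.25) and Mmp9 (6.45 and 5.30, within the background range), and 1 as lower, the syndecan gene Sdc1 (9.59 and 10.24). For comparison, 5.67% of all named genes were counted as higher and 2.68% as lower. Of the genes whose brighter value reached the floor, 10.9% were counted as higher and 5.16% as lower. The median differences of these 4 lists were 0.13, -0.26, 0.10 and 0.35 in that order. They include genes within the background range on both arrays, which numbered 12, 5, 2 and 4.

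Other groups of genes were compared between the same arrays. The shares to set beside their counts were 5.67% of all named genes higher and 2.68% lower. Over the genes whose brighter value reached the floor, the shares were 10.9% and 5.16%. Cell cycle genes were higher in LysM(+) for 13 of 13 measured, with a median difference of 2.98. Of these, 5 were above background on the LysM(+) array alone, among them Bub1 (8.35 and 5.37), whose difference is the median. Neutrophil markers had 4 of 11 counted as higher and 0 as lower, a median difference of 0.40 and a mean log2 value of 10.15 against 9.67. Of these 11, 8 had the higher value in LysM(+) and 3 the lower value, the latter including Csf3r (12.65 and 13.22) and Mpo (9.99 and 10.29). Above background on both arrays were 7, led in difference by Ltf, the lactoferrin gene (9.69 and 8.31). Elane (7.64 and 6.46) and Retnlg (7.62 and 6.29), both counted as higher, were above it on the LysM(+) array alone. Camp (5.87 and 5.82) and Prtn3 (6.08 and 6.10) were within the background range. The monocyte markers had 1 of 5 counted as higher, Cx3cr1, and a median of 0.36, with mean values of 9.12 and 8.59. Of 14 measured genes of inflammatory activation, 2 were counted as higher, Tnf (11.47 and 10.19) and Il10 (8.49 and 7.85), and 2 as lower, Saa3 (7.17 and 7.88) and Acod1 (7.11 and 7.72). Il6 (3.95 and 4.17) and Nos2 (4.70 and 4.35), which are strongly induced on activation, were within the background range on both arrays. The markers of T, B and NK cells (8 measured) and of erythroid cells (2 measured) were within the background range throughout, whereas 3 of the 5 fibroblast and stromal markers were above it, with 1, Col1a2 (8.54 and 9.14), counted as lower. Dendritic, endothelial, and eosinophil, basophil and mast cell markers had 0 counted genes of 7, 5 and 6 measured. The part of any of these cell types, or of the cell cycle difference, in the chemokine values was not tested.

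**Figure D4:**
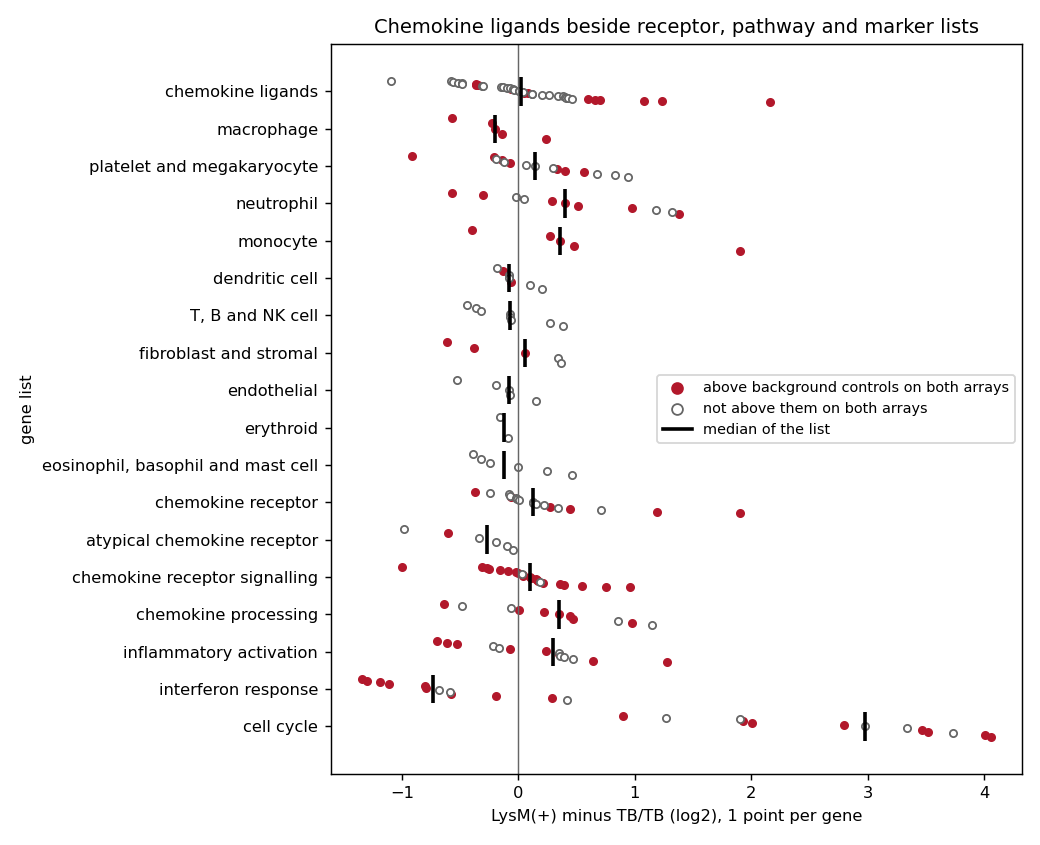
Differences (LysM(+) minus TB/TB, log2, horizontal axis) of the chemokine ligand genes and of each receptor, pathway and marker list, 1 point per gene, filled where a gene was above background on both arrays, with the median of each list as a bar. The median is 0.02 for the chemokine ligands, -0.74 for the interferon response and 2.98 for the cell cycle.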

How the data were processed

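The authors deposited 1 value for each probe set and array, taken here as log2, which they made by RMA with the program Affymetrix Expression Console according to the submitters' processing notes. Versions and the log base: not given in the sources used here. RMA had already corrected background and normalized between the arrays, so a shift of all genes could no longer be seen. Of 28846 probe sets, 19572 had a gene symbol in the platform annotation and were matched by Entrez ID to RefSeq (GRCm38.p6), giving 19505 genes, and several probe sets of 1 gene were averaged. The difference LysM(+) minus TB/TB was counted at 1.5-fold with the floor of 6.12. All chemokine genes could be named, and from other lists the counted members, at most 6 per list; genes named beside them were chosen after their values were seen. The members and lists were chosen with earlier results of these data known. Listed genes that were not measured are not analysed here. The counting code was tested on simulated data. Promoters (28 of 40 members matched) were searched with regular expressions and aligned locally (match 2, mismatch 3, gap 5 and 2) in Biopython 1.88; other steps used Python 3.11.15, pandas 2.3.3 and statsmodels 0.14.6. With 1 array per group the number of arrays limits the precision. Alternatives were median centring, quantile normalization, loess (span 0.4), the brightest probe set, other floors and thresholds of 1.3-fold and 2-fold.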

Additional observations from a re-analysis of the deposited data

How the results depend on the processing

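With median centring, quantile normalization, loess and the brightest probe set, the count of chemokine ligand genes higher in LysM(+) was 5 or 6 and the count lower was 0, and Ccl4 was the member whose call changed. At a 2-fold threshold 3 genes were higher (Ppbp, Pf4 and Ccl6), and at 1.3-fold 8 were. Without a floor 1 gene was lower, Ccl8, whose values are within the background range. The median difference was between 0.02 and 0.04 under these scalings and was 0.38 over the members whose brighter value passed the highest background control, a subset that favours genes higher on one array. The count of 13 genes above background became 16 with the limit at the floor. Leaving out a replicate was not possible with 1 array per group, and signal over background limits what can be said of the 27 members not above it on both arrays.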
